A study of Mus musculus with 6 samples.

Results

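The genes described here are 32 genes of the unfolded protein response and the integrated stress response, followed in the retina of mice that lack Dicer1 in rod photoreceptors. They were chosen by function, as chaperones of the endoplasmic reticulum (ER), folding enzymes, parts of ER-associated degradation, stress sensors, and targets of the transcription factors ATF4 and CHOP. All 32 were found by symbol among the 22731 genes of the deposited table. Every one had a mean of at least 1 RPKM (reads scaled by gene length and by library size) over the 6 libraries, so all 32 were among the 12599 genes tested.

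Secreted and membrane proteins fold in the ER with the help of chaperones and of enzymes that form disulfide bonds, and chains that fail to fold are pulled back to the cytosol and degraded. When unfolded protein builds up, the sensors IRE1 (Ern1), PERK (Eif2ak3) and ATF6 raise the transcription of chaperone and degradation genes. PERK also slows translation, which favours the translation of ATF4, and ATF4 then raises the transcription of its target CHOP (Ddit3). Rods make large amounts of the membrane protein rhodopsin in this compartment, and misfolded rhodopsin is a known source of ER stress in inherited retinal degeneration.

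The study compared retinas of conditional knockout (cKO) mice, Dicerfl/fl with iCre75+, with retinas of control littermates, Dicerfl/fl with iCre75-. Dicer1 encodes the ribonuclease that makes mature microRNAs, and iCre75 is a transgene in which the rhodopsin promoter drives Cre recombinase in rods. Both groups carried the floxed alleles on a mixed C57BL/6J and SJL background, were 4 weeks old and had tissue collected between 8 and 10 in the morning. There were 3 libraries of each group, labelled replicates 2, 3 and 4 for cKO and 1, 2 and 3 for control, and each library was made from the pooled RNA of 4 mice. Whole retina was sequenced, so other cell types that keep Dicer1 contribute to every value, and fewer cells of a type and less RNA per cell cannot be told apart.

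Whole reads worked back from the RPKM steps put between 12336426 and 29007058 reads in genes in the cKO libraries and between 27204444 and 32934561 in the control libraries. Every member rested on at least 61 reads in each library. Dicer1 itself was at 8.02, 7.06 and 7.90 RPKM in cKO and at 8.48, 8.77 and 8.33 RPKM in control retinas, a weak check since exons outside the floxed part and other cells also give reads. The single gene called between genotypes was Prm1, a sperm protamine gene, at 787, 818 and 1137 RPKM in cKO and 0, 0.385 and 0.185 RPKM in control retinas. Whether these reads come from the endogenous gene or from the transgene, which only the cKO mice carry, was not tested. The tissue label was checked on 8 rod markers, rhodopsin among them, whose RPKM values summed to between 19988.8 and 22098.5 in cKO and between 21199.2 and 24666.9 in control retinas. Lists of markers of the cone, bipolar, amacrine, ganglion cell, Müller glia, microglia, endothelium, pigment epithelium, lens and plasma cell had no gene past the adjusted threshold. The bipolar sum was between 343.1 and 370.3 RPKM in cKO and between 312.7 and 325.7 RPKM in control retinas, with 5 of 6 markers higher in cKO and none at 0. The 7 lens markers, all lower in the cKO mean, summed to between 171.5 and 2094.8 RPKM in cKO and between 301.2 and 2712.9 RPKM in control retinas. The part of bipolar cells and lens in the results below was not tested.

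No member passed the test between genotypes. In limma on log2(RPKM + 0.5), adjusted over all genes tested, 0 of the 32 members reached an adjusted p of 0.05, where the same rule called 1 of 12599 genes, or 0.00794%. The adjusted p of the members lay between 0.871 and 0.9995. At an unadjusted p of 0.05 there was 1 member, Syvn1, against 5.71% of all genes tested, and limma voom on recovered reads called 0 members as well. The 95% intervals of the 32 fold changes ran from −0.46 to 0.61 on the log2 scale, that is from 0.73 to 1.53 of the control level, so larger changes of any single member lie outside its interval.

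Taken by direction, 21 members had a higher and 11 a lower mean in cKO retinas, with a median log2 fold change of 0.041 for the members and −0.005 for all genes tested, of which 48.4% were higher. The count of 21 rested on cKO replicate 4: without that library it was 12 of 32 and the median −0.051. The 3 cKO values exceeded every control value in 3 members, Syvn1, Sel1l and Dnajc3, against 5.91% of all genes tested. The reverse held for 1 member, Ppp1r15a, against 5.78%. Together these 4 of 32 are a share near the background.

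**Figure D1:**
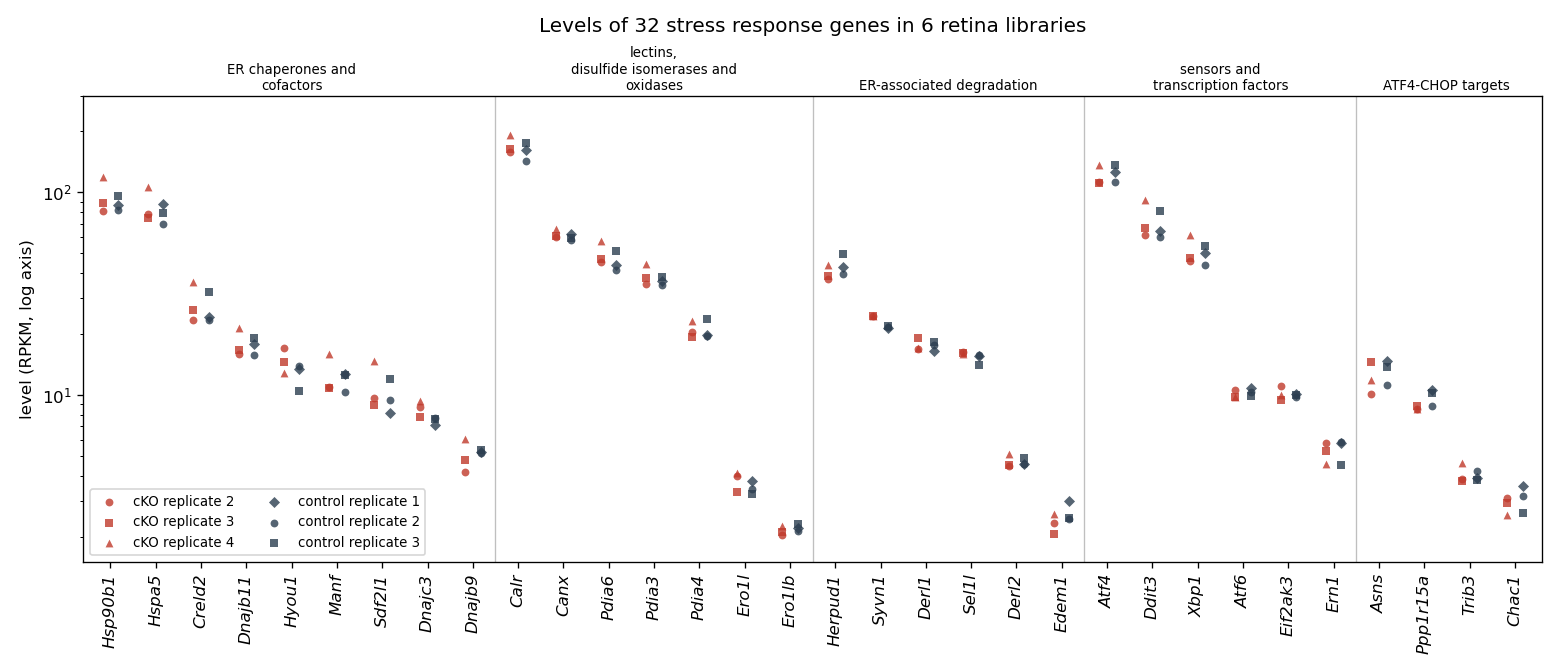
Level of each member in RPKM on a log axis, in the 3 cKO libraries (red, left of each pair) and the 3 control libraries (dark, right), ordered by role and by mean level. Points of the 2 groups interleave for 28 of the 32 genes, and cKO replicate 4 (red triangle) is the highest of the 6 libraries for 19.

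**Figure D2:**
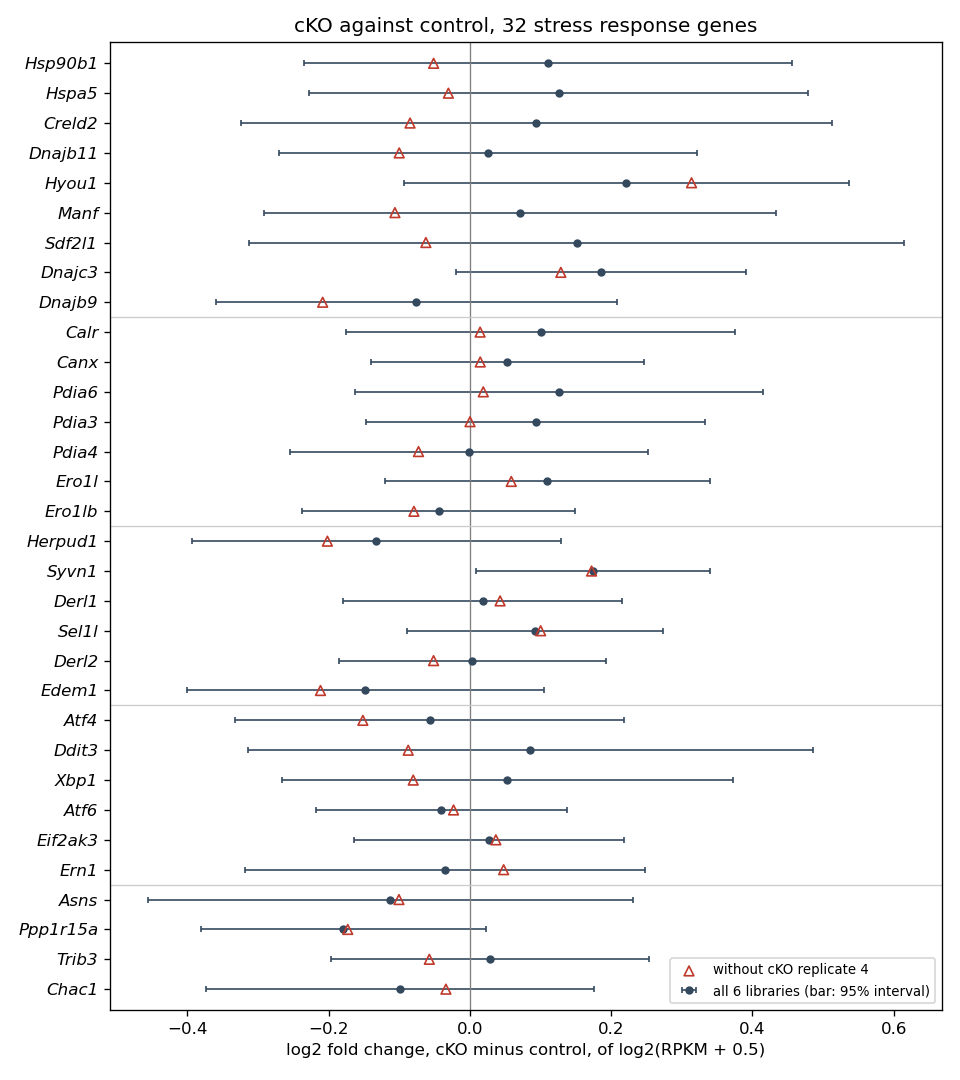
Log2 fold change of each member, cKO minus control, with its 95% limma interval (dark), and the value without cKO replicate 4 (open red triangles). The interval of 1 gene, Syvn1, lies wholly above 0, and 11 genes change direction without cKO replicate 4.

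A known element of this response was present in the promoters of some members. The ER stress response element (ERSE) is bound by ATF6 with the general factor NF-Y and by XBP1, and it was searched on both strands as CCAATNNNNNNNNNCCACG in RefSeq promoter windows (GRCm38.p6) from 250 bases before to 50 after a gene's start. Windows were found for 28 of the 32 members, and not for Hyou1, Manf, Derl1 and Atf6. The element was present in 9 of the 28, or 32.1%. It was in 17 of 9910 tested genes with a window, or 0.172%, and in 39 of all 32851 windows, or 0.119%. Both of these counts include the 9 members, and 8 tested genes outside the 32 held the element. The members were chosen as genes of the response this element belongs to, so their share is not independent of that choice. The 9 are Hspa5, Hsp90b1, Dnajc3 and Creld2 among the chaperones, Calr, Canx, Pdia6 and Ero1lb (Ero1b in RefSeq) among the lectins and oxidases, and Syvn1 alone among the degradation genes. Each element is shown with 10 bases on either side, read 5′ to 3′ on its own strand, with the CCAAT and CCACG boxes in capitals. Hsp90b1 has 2 of them.
Hspa5, chr2:34772015-34772053, plus strand: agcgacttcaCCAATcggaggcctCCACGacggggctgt
Hsp90b1, chr10:86705628-86705666, minus strand: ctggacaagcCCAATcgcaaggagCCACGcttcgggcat
Hsp90b1, chr10:86705523-86705561, plus strand: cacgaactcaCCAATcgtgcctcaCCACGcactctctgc
Dnajc3, chr14:118937817-118937855, plus strand: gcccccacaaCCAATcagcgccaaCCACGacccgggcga
Creld2, chr15:88819510-88819548, minus strand: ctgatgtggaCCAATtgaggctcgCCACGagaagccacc
Calr, chr8:84847065-84847103, plus strand: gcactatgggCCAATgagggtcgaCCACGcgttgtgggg
Canx, chr11:50325790-50325828, minus strand: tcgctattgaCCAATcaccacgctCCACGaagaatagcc
Pdia6, chr12:17266481-17266519, plus strand: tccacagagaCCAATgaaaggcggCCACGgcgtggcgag
Ero1lb, chr13:12565672-12565710, minus strand: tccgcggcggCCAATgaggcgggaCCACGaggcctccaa
Syvn1, chr19:6046522-6046560, plus strand: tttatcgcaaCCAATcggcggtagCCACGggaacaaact

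For the central chaperone gene and for the member with the most uniform difference between genotypes, Hspa5 and Syvn1, the 150 bases before the start are given on the strand of the gene, again with the boxes in capitals. The Hspa5 element spans positions −65 to −47 and the Syvn1 element positions −44 to −26 from the start.
Hspa5, chr2:34771940-34772089, plus strand: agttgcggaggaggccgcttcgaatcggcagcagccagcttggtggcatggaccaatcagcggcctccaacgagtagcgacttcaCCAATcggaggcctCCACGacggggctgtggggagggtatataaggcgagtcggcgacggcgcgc
Syvn1, chr19:6046426-6046575, plus strand: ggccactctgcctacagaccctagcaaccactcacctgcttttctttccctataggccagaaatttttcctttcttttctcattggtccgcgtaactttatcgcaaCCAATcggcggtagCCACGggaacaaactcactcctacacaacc

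Other motifs of the pathway were searched in the same windows. CCAAT with CCACG anywhere downstream on the same strand, which includes every ERSE, was present in 15 of the 28 members, or 53.6%, and in 7.32% of tested genes with a window. The core of the XBP1 and ATF6 site, TGACGTGG, was in 0 of the 28, against 1.06% of tested genes. The ATF4 element TGATGNAA was in 4 members, Asns, Chac1, Trib3 and Herpud1, or 14.3%, against 2.51% of tested genes, and its strict form TGATGCAAT in 0, against 0.131%. A match is a run of letters and was not tested as a binding site.

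No ER chaperone passed the test, and for most of them the libraries of the genotypes overlapped. Hsp90b1, the ER form of HSP90 (GRP94), was the most abundant of the 9 chaperones and cofactors, at 81.4, 88.6 and 119 RPKM in cKO and 86.7, 81.7 and 96.1 RPKM in control retinas. The cKO replicate 4 value stood above the other 5, which overlapped. Hspa5, the ER HSP70 (BiP) that holds the sensors inactive, was at 78.5, 75 and 106 RPKM in cKO and 87.7, 69.4 and 79.1 RPKM in control retinas, with the same library on top. Their log2 fold changes were 0.11 ± 0.15 for Hsp90b1 and 0.13 ± 0.15 for Hspa5 (SE, limma adjusted p = 0.997 for both).

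Hyou1, a nucleotide exchange factor for BiP, ran the other way between libraries. It was at 16.97, 14.5 and 12.9 RPKM in cKO and at 13.5, 13.9 and 10.5 RPKM in control retinas, so its lowest cKO value was cKO replicate 4 and the groups overlapped (log2 fold change 0.22 ± 0.14 SE, limma adjusted p = 0.949). Dnajc3, a BiP co-chaperone that also inhibits PERK (p58IPK), was at 8.72, 7.75 and 9.32 RPKM in cKO and 7.12, 7.71 and 7.61 RPKM in control retinas. The groups of Dnajc3 did not overlap, though cKO replicate 3 and control replicate 2 lay close, at 7.75 and 7.71 RPKM (log2 fold change 0.19 ± 0.09 SE, limma adjusted p = 0.906, exact two-sided permutation p = 0.1, the smallest that 3 against 3 libraries allow).

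The other 5 genes of this role overlapped between genotypes. Sdf2l1, a partner of the ER J-domain proteins, had the widest spread of all members, with a highest library 1.82 times the lowest: 9.68, 8.96 and 14.8 RPKM in cKO and 8.15, 9.47 and 12.0 RPKM in control retinas. Creld2, a secreted ER stress gene, averaged 28.6 ± 6.73 RPKM in cKO and 26.6 ± 4.78 RPKM in control retinas (SD, n = 3 each), and Manf, an ER-resident neurotrophic factor, 12.6 ± 2.93 RPKM in cKO and 11.8 ± 1.28 RPKM in control retinas. The co-chaperone Dnajb11 (ERdj3) averaged 18.0 ± 2.91 RPKM in cKO and 17.6 ± 1.74 RPKM in control retinas. Dnajb9 (ERdj4), which restrains IRE1, averaged 5.01 ± 0.960 RPKM in cKO and 5.25 ± 0.0799 RPKM in control retinas and was the 1 gene of the 9 with a lower mean log2 value. Of the 9 chaperones, 8 had a positive log2 fold change and 0 passed, with a median log2 fold change of 0.11. Without cKO replicate 4 that median was −0.062.

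Lectin chaperones, disulfide isomerases and their oxidases did not pass the test either. Calr (calreticulin), which binds glycoproteins in the ER lumen and was the most abundant member of all, was at 158, 163 and 192 RPKM in cKO and 161, 143 and 175 RPKM in control retinas, so cKO replicates 2 and 3 lay inside the control range and replicate 4 above it (log2 fold change 0.10 ± 0.12 SE, limma adjusted p = 0.997). Its membrane-bound partner Canx (calnexin) averaged 62.4 ± 2.96 RPKM in cKO and 60.1 ± 2.15 RPKM in control retinas. The isomerases Pdia6, Pdia3 and Pdia4 averaged 49.96, 39.2 and 20.97 RPKM in cKO and 45.6, 36.6 and 21.0 RPKM in control retinas. Ero1l and Ero1lb, the oxidases that recharge the isomerases, were among the scarce members, at 3.81 ± 0.419 and 2.13 ± 0.118 RPKM in cKO and 3.49 ± 0.252 and 2.21 ± 0.0878 RPKM in control retinas. Of the 7 genes, 5 were higher, 2 lower and 0 past the threshold, with a median log2 fold change of 0.093 (0.014 without cKO replicate 4).

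Among the degradation genes, the ubiquitin ligase and its adaptor had higher means in cKO, and a scaffold and a glycoprotein factor lower ones, with 0 past the adjusted threshold. Syvn1, the HRD1 ubiquitin ligase that marks misfolded ER proteins, was at 24.5, 24.5 and 24.6 RPKM in cKO and 21.4, 21.8 and 21.9 RPKM in control retinas. All cKO values lay above the control range, with a cKO mean at 113% of the control mean. The log2 fold change was 0.17 ± 0.07 (SE, limma p = 0.0413, adjusted p = 0.871, exact two-sided permutation p = 0.1), and it lay between 0.15 and 0.18 in all 18 alternatives run. Its within-group SD of 0.012 on the log2 scale was small beside the 0.128 of the median gene tested, and limma, which draws each gene's spread toward that of genes of like level, gives it a larger error than its own 6 values do. Sel1l, the adaptor that holds this ligase in its complex, was at 16.4, 16.1 and 15.9 RPKM in cKO and 15.5, 15.7 and 14.1 RPKM in control retinas (log2 fold change 0.09 ± 0.08 SE, limma adjusted p = 0.984).

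Both lower means were of factors that work with this ligase. Herpud1, a membrane scaffold of the complex and the most abundant degradation gene, was at 37.4, 38.6 and 44.0 RPKM in cKO and 42.8, 39.4 and 49.7 RPKM in control retinas, with cKO replicate 4 above 2 of the 3 control values. Edem1, which helps commit glycoproteins to degradation, was at 2.35, 2.07 and 2.58 RPKM in cKO and 3.00, 2.43 and 2.49 RPKM in control retinas. The log2 fold changes were −0.13 ± 0.11 for Herpud1 and −0.15 ± 0.11 for Edem1 (SE, limma adjusted p = 0.984 and 0.972). Derl1 and Derl2, membrane proteins of the exit channel, averaged 17.6 ± 1.19 and 4.69 ± 0.351 RPKM in cKO and 17.4 ± 0.904 and 4.67 ± 0.180 RPKM in control retinas. The role counted 4 genes higher, 2 lower and 0 past the threshold.

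None of the sensors passed the test. Ern1, the kinase and ribonuclease IRE1α, was at 5.82, 5.29 and 4.59 RPKM in cKO and 5.76, 5.86 and 4.52 RPKM in control retinas. Eif2ak3, the kinase PERK, was at 11.1, 9.46 and 10.0 RPKM in cKO and 10.2, 9.83 and 9.96 RPKM in control retinas, and Atf6, the membrane-bound transcription factor, at 10.6, 9.78 and 9.80 RPKM in cKO and 10.8, 10.3 and 9.94 RPKM in control retinas. Their groups overlapped, with log2 fold changes of −0.04 ± 0.12, 0.03 ± 0.08 and −0.04 ± 0.08 (SE, limma adjusted p = 0.997 for each). Sensors are switched by unfolded protein rather than by the amount of their RNA, so these values do not read their activity.

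The transcription factors downstream were far more abundant. Atf4 was at 113, 111 and 137 RPKM in cKO and 126, 113 and 136 RPKM in control retinas, Ddit3 at 61.4, 66.5 and 91.8 RPKM in cKO and 64.3, 60.2 and 80.9 RPKM in control retinas, and Xbp1 at 45.6, 47.4 and 61.5 RPKM in cKO and 50.1, 43.7 and 54.4 RPKM in control retinas. For all 3 genes cKO replicate 4 was the highest library and control replicate 3 the second highest, and the groups overlapped (log2 fold changes −0.06 ± 0.12, 0.09 ± 0.17 and 0.05 ± 0.14 SE, limma adjusted p = 0.997 for each). A gene-level value holds both the unspliced and the IRE1-spliced form of Xbp1, and Atf4 is controlled mainly in translation. The labels describe no step that marks strand, and where the RefSeq spans of genes overlap, introns included, their reads may be mixed. The longest overlaps were with noncoding genes, of Dnajb11 with Gm30505 by 4652 bp and of Edem1 with Gm35417 by 4232 bp. Those with protein-coding genes were of Hspa5 with Rabepk by 1921 bp, Ppp1r15a with Tulp2 by 730 bp, Pdia3 with Catsper2 by 697 bp, Atf6 with Gm29733 by 420 bp, Derl2 with Mis12 by 274 bp, Syvn1 with Mrpl49 by 89 bp, Ddit3 with Mbd6 by 77 bp and Mars1 by 71 bp, and Pdia6 with Atp6v1c2 by 65 bp.

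The targets of ATF4 and CHOP had lower means in 3 of 4 cases. Ppp1r15a, the subunit (GADD34) that directs a phosphatase to eIF2α and so ends the translation block, was at 8.53, 8.83 and 8.56 RPKM in cKO and 10.6, 8.84 and 10.2 RPKM in control retinas. The cKO values all lay below the control values, but cKO replicate 3 and control replicate 2 lay close, at 8.83 and 8.84 RPKM (log2 fold change −0.18 ± 0.09 SE, limma adjusted p = 0.906, exact two-sided permutation p = 0.1). Asns, asparagine synthetase and the most abundant of the 4, was at 10.2, 14.6 and 11.9 RPKM in cKO and 14.6, 11.2 and 13.7 RPKM in control retinas, and the groups covered nearly the same range. Chac1, which breaks down glutathione, averaged 2.87 ± 0.268 RPKM in cKO and 3.12 ± 0.483 RPKM in control retinas, and Trib3, a pseudokinase that feeds back on ATF4, 4.08 ± 0.490 RPKM in cKO and 3.97 ± 0.211 RPKM in control retinas. The median log2 fold change of the 4 was −0.11, and −0.022 without control replicate 1.

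For most members the spread between libraries of a genotype was larger than the difference between genotypes. The difference between genotype means exceeded the spread within groups (1 pooled SD, log2 scale) for 6 of the 32 members, against 29.7% of all genes tested. The median within-group SD was 0.148 for the members and 0.128 for all genes tested. The library that stood apart was cKO replicate 4, the highest of the 6 for 19 members and the lowest for 1, where it was the highest for 30.3% of all genes tested. It is also the library with the fewest reads, and each of the 7 lens markers was lowest in it. The next lowest library for each of them was control replicate 2, where the median member lay at −0.076. The part of lens in this pattern was not tested. The median member lay 0.15 above its own mean there on the log2 scale, the median chaperone 0.375 above, and the median gene tested 0.047 above.

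**Figure D3:**
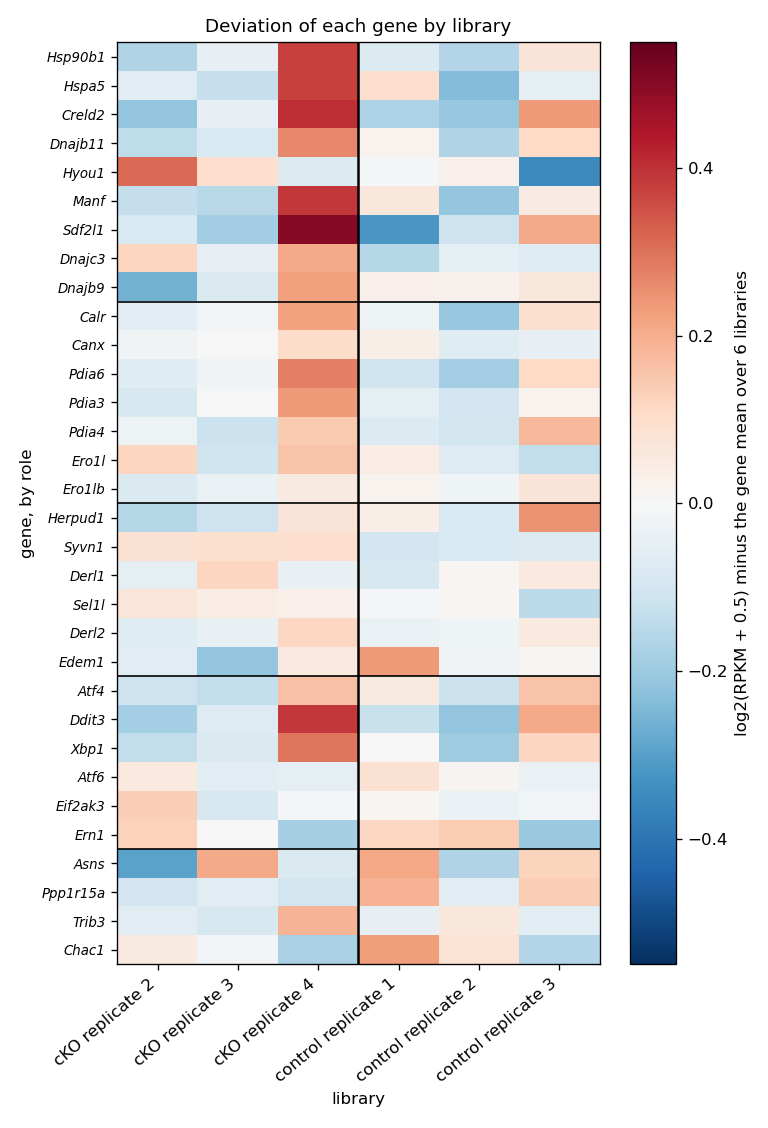
Deviation of each member's log2(RPKM + 0.5) from its mean over the 6 libraries, with genes by role down the page and the cKO libraries left of the control libraries. The cKO replicate 4 column is red for most chaperones, isomerases and transcription factors, with Sdf2l1 highest at 0.50, and Hyou1, Ern1 and Chac1 are blue there.

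Gene length moved with this library pattern. The short tested genes, up to 1570 bp, had median deviations of 0.179 in cKO replicate 4, −0.185 in cKO replicate 2, 0.172 in control replicate 3 and −0.143 in control replicate 2. The members had a median recovered length of 2629 bp, from 871 bp (Ddit3) to 7463 bp (Atf6). With the trend of each library on length removed, an alternative added after the data were seen, cKO replicate 4 was still the highest library for 16 members, against 24.5% of all genes tested. The deviation of Hspa5 in that library was 0.375 as deposited and 0.319 after the correction, and that of Ddit3 0.388 and 0.188. The median within-group SD of the members was 0.108 after the correction, the same as that of all genes tested. No member passed in the corrected values (lowest limma adjusted p = 0.557). In them the groups of Ppp1r15a overlapped, with deviations of 0.067 in cKO replicate 2 and −0.029 in control replicate 3. The groups of Syvn1, Sel1l and Dnajc3 stayed apart.

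**Figure D4:**
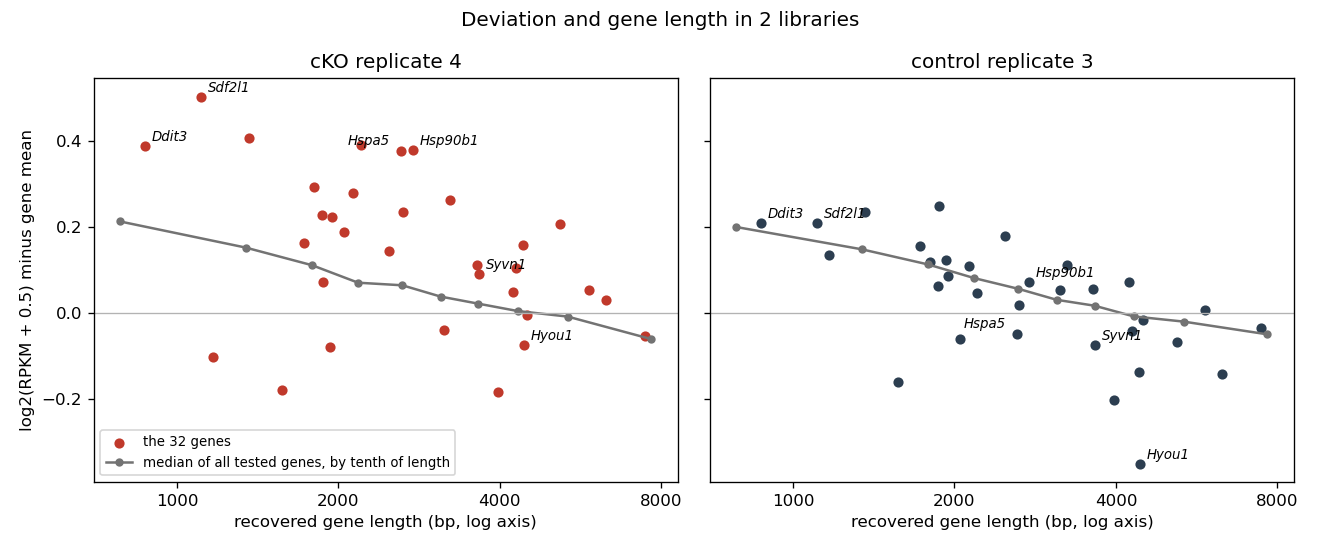
Deviation of the 32 members (points) against recovered gene length on a log axis, in cKO replicate 4 (left) and control replicate 3 (right), with the median deviation of all tested genes in 10 equal bins of length (grey line). In cKO replicate 4, Hspa5 lies at 0.375 and Hsp90b1 at 0.378 where genes of that length have a median of 0.064, while in control replicate 3 Hspa5 lies at −0.050.

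The members with an ERSE were also above their means in this library, which was singled out because many members were high in it. All 9 were above their own mean in cKO replicate 4, with a median deviation of 0.222, and so were 14 of the 19 members whose window held none, with a median of 0.144, against 60.9% of all genes tested. The deviations of the 9 ran from 0.048 (Ero1lb) to 0.405 (Creld2), and the 9 include no sensor, transcription factor or ATF4 target. Chaperones with an ERSE lay at 0.375 (Hspa5), 0.378 (Hsp90b1), 0.207 (Dnajc3) and 0.405 (Creld2). Those whose window held no exact match lay at 0.502 (Sdf2l1), 0.263 (Dnajb11) and 0.227 (Dnajb9). The windows of Sdf2l1 and Dnajb9 did hold CCAAT with CCACG downstream at another spacing, and that of Dnajb11 did not. Among the 19, the windows of Pdia4, Atf4, Derl2 and Sel1l held this looser form too. Of the 4 members with no window, 1 was above its mean in cKO replicate 4, with a median of −0.047. After the length correction the medians were 0.197 for the 9, 0.081 for the 19 and −0.04 for the 4. Of 8 tested genes outside the 32 whose window held an ERSE, 7 were above their mean in that library, with a median deviation of 0.267. The 8 are Adcy3, Alg12, Derl3, Hnrnpa3, Pan2, Spats2l, Tdrd9 and Zfp57. Between genotypes, 8 of the 9 members with an ERSE had a higher mean in cKO and 0 passed. The same held for 10 of the 19 whose window held none, and 48.4% of all genes tested were higher. The 9 share their libraries, so they are not independent observations of a genotype, and the counts for cKO replicate 4 describe 1 library. Between genotypes, Calr, Canx, Dnajc3 and Syvn1 were higher in cKO in every alternative, and Ero1lb lower in every alternative that tested it. Hspa5, Hsp90b1, Creld2 and Pdia6 turned sign in some.

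Further genes of the pathway, taken from lists of other folding enzymes, degradation factors, regulators and ATF4 targets, did not pass either: in limma 0 tested genes of the 4 lists reached an adjusted p of 0.05, and 1, Atf3, an unadjusted p of 0.05. Of 32 other folding and translocon genes, 15 had a higher and 17 a lower mean in cKO, with a median log2 fold change of −0.014. Within them the translocon subunit gene Sec61a1 averaged 39.1 ± 2.48 RPKM in cKO and 35.4 ± 0.559 RPKM in control retinas, and Hspa13, an HSP70 relative of microsomes, 4.58 ± 0.185 RPKM in cKO and 5.23 ± 0.251 RPKM in control retinas. Of 22 other degradation genes, 14 were higher and 8 lower, with a median of 0.045. Among those lower, the ubiquitin-conjugating enzyme gene Ube2j2 averaged 0.958 ± 0.0970 RPKM in cKO and 1.10 ± 0.109 RPKM in control retinas.

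Of 26 other sensors and regulators, 10 were higher and 16 lower, with a median log2 fold change of −0.027. Atf3, a stress-induced transcription factor that PERK signalling and many other stimuli raise, had the largest difference of the wider lists, at 2.27 ± 0.298 RPKM in cKO and 3.19 ± 0.618 RPKM in control retinas. The groups did not overlap (log2 fold change −0.41 ± 0.14 SE, limma p = 0.0179, adjusted p = 0.848, exact two-sided permutation p = 0.1). The ATF6 relative Atf6b averaged 37.4 ± 2.47 RPKM in cKO and 33.8 ± 2.46 RPKM in control retinas. Of 37 other ATF4 and CHOP targets, 17 were higher and 20 lower, with a median of −0.020. Stc2, a stanniocalcin, averaged 1.18 ± 0.329 RPKM in cKO and 0.863 ± 0.124 RPKM in control retinas, and the cationic amino acid transporter gene Slc7a3 1.10 ± 0.178 RPKM in cKO and 1.31 ± 0.289 RPKM in control retinas. Their limma adjusted p lay above that of Atf3.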

How the data were processed

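The authors deposited 1 table of RPKM values per gene symbol and library. The submitters' processing notes name GSNAP, HTSeq and mm9, without versions or roles. The annotation and the length model were not given in the sources used here. Per the labels' protocols, cDNA came from poly(A) RNA and random primers, and no step that marks strand is described.

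RPKM is not a count, so limma 3.58.1 (R 4.3.3) with a variance trend was run on log2(RPKM + 0.5), for genes averaging 1 RPKM or more, without block or covariate. The two-sided p-values carry a Benjamini-Hochberg adjustment over 12599 genes. Reads were worked back from the steps of the values. Short RNA genes of known RefSeq length gave each library's denominator, and 99.99% of 19140 genes above 0 fell on whole reads within rounding. These reads give depth and the voom alternative. Intervals are unadjusted. The p-values measure the spread between libraries, each from a pool of mice, and this spread includes library differences such as the trends with gene length. Both steps were tested on simulated data. The simulated reads for limma had the same relative spread beyond counting noise for every gene and no trend with gene length. They therefore do not show how the test behaves under such trends.

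The members, lists and tests were chosen with earlier results of these data known. Values in every library are given for the 3 members with the smallest p in each direction, the most abundant of each role and the 6 sensors and transcription factors. Hspa5, Sdf2l1 and Sel1l were added after their values were seen. Of the wider lists, genes with the smallest p in a direction are named, except 1 that is not reported here. Alternatives were other pseudocounts, filters, scalings, no trend, each library left out, a replicate block and voom. RefSeq (GRCm38.p6) gave promoters, gene overlaps and the lengths of the short RNA genes. Its build differs from the mm9 of the notes. Protein sequences were not used here. Replicates 2 and 3 share a number across groups, and the labels do not say whether they were paired.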

Additional observations from a re-analysis of the deposited data

How the results depend on the processing

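No member passed an adjusted p of 0.05 in any of the 18 alternatives, 2 of them (length-corrected values, and the fit without both cKO replicate 4 and control replicate 3) chosen after seeing the data. The lowest limma adjusted p of a member was 0.0627 with the replicate block, for Hyou1, and 0.502 in the others. The count of all genes called was 1, and 3 with no filter, 2 with the filter of 5 RPKM, 2 with no variance trend, 3 with median-of-ratios scaling, 3 with voom, 3 with length-corrected values and 2 without cKO replicate 4 and control replicate 3. The replicate block on numbers 2 and 3 called 192, with 86 higher and 106 lower, on 4 libraries with 1 residual degree of freedom. The same libraries without it called 1. Same-numbered libraries had deviation correlations of 0.465 for replicates 2 and −0.052 for replicates 3. The differently numbered cKO replicate 4 and control replicate 3 had 0.476. These values cannot settle whether the numbers pair libraries, and the labels state no pairing. Members higher numbered 21, 13 with the block or without it in those 4 libraries, and from 12 to 23 with 1 library left out. The median log2 fold change of the ATF4 and CHOP targets ran from −0.1544 to −0.0219 with 1 library left out, and that of the wider ATF4 list from −0.0193 to 0.0237. The wider list was at 0.0372 without cKO replicate 4 and control replicate 3 and −0.0201 with all. Members with groups apart numbered 4, or 12.5% against 11.7% of all genes tested, and 10 without cKO replicate 4, or 31.2% against 29.5%.

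The direction of 11 members held in every alternative that tested them: Hyou1, Dnajc3, Calr, Canx, Ero1l, Ero1lb, Herpud1, Edem1, Sel1l, Syvn1 and Ppp1r15a. Log2 fold changes that turned sign in the block and in the same libraries alone were Hsp90b1 −0.0621, Dnajb11 −0.0841, Sdf2l1 −0.1846, Manf −0.0578, Creld2 −0.1453, Pdia3 −0.0032, Pdia6 −0.0041, Derl2 −0.0688, Ern1 0.0968, Atf6 0.0081, Xbp1 −0.0675, Ddit3 −0.1264, Trib3 −0.0723 and Chac1 0.0556. With voom they were Dnajb11 −0.006, Derl2 −0.0246 and Trib3 −0.0069, with median-of-ratios scaling Pdia4 0.0047, with quantile normalization Derl1 −0.0014 and with length-corrected values Derl2 −0.0058. Without cKO replicate 4 and control replicate 3 they were Hspa5 −0.0239, Dnajb11 −0.0389, Manf −0.0658, Pdia4 0.0159, Derl2 −0.0229, Xbp1 −0.0084 and Trib3 −0.0812. With 1 library left out, Hspa5 from −0.0305 to 0.2204, Hsp90b1 from −0.0514 to 0.2213, Dnajb11 from −0.1001 to 0.1015, Dnajb9 from −0.2085 to 0.0357, Sdf2l1 from −0.0624 to 0.2931, Manf from −0.1062 to 0.1637, Creld2 from −0.0848 to 0.2347, Pdia4 from −0.0728 to 0.0879, Derl1 from −0.0359 to 0.0488, Derl2 from −0.0515 to 0.0368, Ern1 from −0.1452 to 0.0477, Eif2ak3 from −0.033 to 0.078, Xbp1 from −0.0803 to 0.1335, Atf4 from −0.1516 to 0.007, Ddit3 from −0.0874 to 0.2106, Trib3 from −0.0575 to 0.0791 and Asns from −0.244 to 0.0068. Derl1 was at 0.0735 without cKO replicate 4 and control replicate 3. The cause of these turns was not tested. Depth limits Chac1 most, the member with the fewest reads, at 61 in cKO replicate 4.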
